A study of Mus musculus with 16 samples.

Results

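NRF2 antioxidant response genes were followed across the groups of an atopic dermatitis experiment in mouse dorsal skin. They were 10 genes chosen by name: Nfe2l2, Keap1, Nqo1, Hmox1, Slc7a11, Gclc, Gclm, Gsr, Txnrd1 and Srxn1. They made up 10 of the 23282 rows of each count table, and all 10 were among the 14854 rows that passed the low-count filter. Slc7a11 had no count in any Cont library and reached the filter through the DNCB-treated groups, so that its passing the filter is not independent of its difference between groups.

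RNA from the skin of 16 wild-type mice was sequenced from transcript 3′ ends, with 4 libraries in each of 4 groups. The mice were male C57BL/6N animals bought at 3 weeks of age and given 1 week to adapt. Cont mice received normal chow. LowAhR mice received a diet low in ligands of the aryl hydrocarbon receptor (AhR) for 12 weeks, with paper bedding free of such ligands. LowAhR+AD mice were on the same diet and bedding, and after 2 weeks of it 1% 2,4-dinitrochlorobenzene (DNCB), a contact sensitizer, was applied to the back 2 times a week. LowAhR+AD+BJ mice were treated in the same way and also received Bojungikgi-tang (BJIKT), a herbal water extract, by gavage at 1 g/kg a day. The mice were of an inbred strain, no group received DNCB on normal chow or BJIKT without DNCB, and the treatment of the other groups with vehicle was not given in the sources used here. LowAhR against Cont thus asks what the diet and bedding do, LowAhR+AD against LowAhR what DNCB does on that diet, and LowAhR+AD+BJ against LowAhR+AD what the extract adds.

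NRF2, the product of Nfe2l2, is a transcription factor that switches on genes for glutathione synthesis, thioredoxin reduction and detoxification of electrophiles. Under resting conditions KEAP1 binds NRF2 and directs it to degradation, and when oxidants or electrophiles modify cysteines of KEAP1, NRF2 accumulates, pairs with a small MAF protein and binds antioxidant response elements. Because much of this control acts on the NRF2 protein, the mRNA of Nfe2l2 need not follow the activity of the pathway. In skin the pathway is known for protecting keratinocytes, and DNCB is itself an electrophile that depletes glutathione.

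Promoter sequences were examined to show which of the genes carry the letters of an antioxidant response element next to an annotated start. RefSeq windows of 300 bases on GRCm38.p6, from 250 bases before to 50 after a transcript start, were matched for 7 of the 10 genes, with 3 windows for Txnrd1 and 1 for each of the others, and Hmox1, Gclc and Gsr had none. Both strands were searched for the core TGACNNNGC of the antioxidant response element, for the AP-1 element (TGACTCA or TGAGTCA), which can overlap that core, and for the core GCGTG of the AhR element. Among 32851 windows of the same length, 12.4% held the first, 5.2% the second and 32.4% the third. The 250 bases before the start are printed 5′ to 3′ on the coding strand for 5 genes, in lower case with any of these matches in capitals: Slc7a11 (chr3:50443614-50443863, minus strand), Nqo1 (chr8:107403206-107403455, minus strand), Nfe2l2 (chr2:75704664-75704913, minus strand), Gclm (chr3:122245307-122245556, plus strand) and Srxn1 (chr2:152105274-152105523, plus strand).
Slc7a11: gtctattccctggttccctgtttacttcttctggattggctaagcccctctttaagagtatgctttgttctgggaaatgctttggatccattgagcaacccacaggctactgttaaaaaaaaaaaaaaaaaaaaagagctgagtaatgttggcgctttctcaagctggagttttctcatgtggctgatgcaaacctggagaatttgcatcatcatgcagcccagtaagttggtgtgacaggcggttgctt
Nqo1: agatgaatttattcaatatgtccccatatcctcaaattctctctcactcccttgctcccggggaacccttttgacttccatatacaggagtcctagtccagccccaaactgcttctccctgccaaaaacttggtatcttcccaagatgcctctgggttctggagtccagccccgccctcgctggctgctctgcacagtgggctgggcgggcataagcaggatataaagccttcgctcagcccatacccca
Nfe2l2: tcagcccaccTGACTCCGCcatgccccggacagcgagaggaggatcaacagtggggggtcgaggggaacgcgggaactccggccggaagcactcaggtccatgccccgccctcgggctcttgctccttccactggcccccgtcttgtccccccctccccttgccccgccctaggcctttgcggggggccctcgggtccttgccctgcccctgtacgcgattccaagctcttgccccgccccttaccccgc
Gclm: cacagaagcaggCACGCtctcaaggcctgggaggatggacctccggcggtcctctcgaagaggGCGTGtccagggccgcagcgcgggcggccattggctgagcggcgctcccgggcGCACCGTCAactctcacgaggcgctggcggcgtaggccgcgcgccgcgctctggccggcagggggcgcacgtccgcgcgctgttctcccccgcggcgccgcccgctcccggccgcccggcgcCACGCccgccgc
Srxn1: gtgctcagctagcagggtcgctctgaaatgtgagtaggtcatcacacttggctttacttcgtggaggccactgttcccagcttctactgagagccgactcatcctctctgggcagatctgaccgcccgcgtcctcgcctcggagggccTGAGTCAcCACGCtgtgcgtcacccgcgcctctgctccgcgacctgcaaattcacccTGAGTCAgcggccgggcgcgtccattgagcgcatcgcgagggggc
The Slc7a11 and Nqo1 windows held none of the 3 motifs, and the Slc7a11 start lay inside the RefSeq span of the gene rather than at its edge. Nfe2l2 carried the antioxidant response core at position -240. Gclm carried it at -134 on the opposite strand, with the AhR core at -238, -187 and -12. Srxn1 carried the AP-1 letters at -102 and at -45, the AhR core at -94, and a match to the antioxidant response core on the opposite strand at position 29 after the start, outside the stretch printed. Of the windows not printed, that of Keap1 held only the AhR core, while the 3 Txnrd1 windows all held the AhR core and 1 of them the antioxidant response core, at -92. These are matches of letters in short windows and describe no binding.

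Library totals were 7080508 to 8051425 reads in Cont, 7436315 to 8773876 in LowAhR, 11336051 to 13467477 in LowAhR+AD and 10614393 to 12999055 in LowAhR+AD+BJ, so that depth was greater in every DNCB-treated library. Levels are given as CPM, a gene's count per 1000000 reads of the library total after scaling by its TMM factor. Summed CPM of the keratinocyte markers Krt5, Krt14, Krt1 and Krt10 was 4020 to 5160 in Cont, 4370 to 5550 in LowAhR, 5900 to 12300 in LowAhR+AD and 5390 to 9350 in LowAhR+AD+BJ, and 2 of these 4 markers were called higher in LowAhR+AD against LowAhR. LowAhR+AD replicate 1 stood apart: 38.2% of genes predicted from the other libraries of the group to have 20 to 40 counts had none there, against 0.798% to 13.6% elsewhere, and its summed macrophage markers were the lowest at 236 CPM. Values without it are given beside the main results of the LowAhR+AD group, and since all libraries share an estimate of the spread, calls that its omission adds in other comparisons are given too.

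Slc7a11, which encodes the cystine importer subunit xCT, was the only member to pass the test in the main edgeR fit with all libraries. In that fit it passed only in comparisons of DNCB-treated with untreated skin. In LowAhR+AD against LowAhR, 1 of 10 members was called at an adjusted p under 0.05 with edgeR, where 12.6% of all rows tested were called. In LowAhR+AD against Cont 1 of 10 was called, where 21.8% of all rows were, and in LowAhR+AD+BJ against LowAhR 1 of 10, where 6.77% of all rows were. A single call among 10 genes is a share near or below these backgrounds, and nothing particular to the set is read from it.

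In LowAhR against Cont and in LowAhR+AD+BJ against LowAhR+AD no member was called by edgeR, and 0% of all rows were. At an unadjusted p under 0.05, 2 members passed in the former, with 2031 of all rows (13.7%), and 0 members in the latter, with 1405 of all rows (9.46%). DESeq2 called 1 member and 491 rows in the former, and 0 members and 17 rows in the latter. With the spread estimated without LowAhR+AD replicate 1, an alternative added after seeing the data, edgeR called 1 member and 475 rows in LowAhR against Cont, and 2 members and 1716 rows in LowAhR+AD+BJ against LowAhR.

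Over the 10 genes the median log2 fold change was -0.21 in LowAhR against Cont, 0.64 in LowAhR+AD against LowAhR, 0.24 in LowAhR+AD against Cont, 0.34 in LowAhR+AD+BJ against LowAhR and 0.01 in LowAhR+AD+BJ against LowAhR+AD. The median over all rows tested lay between -0.0002 and 0.05 in the same comparisons. Setting Slc7a11 at its lower bound against Cont could not move the medians of the 10 genes, since it was the highest value either way. These medians are given with all libraries only. Without LowAhR+AD replicate 1, the values over LowAhR fell for Nqo1 (1.07 to 0.69), Gclc (0.82 to 0.31), Gclm (0.80 to 0.13) and Txnrd1 (0.54 to 0.43). They rose for the other members, so that the height of 0.64 rests in part on that library. By sign alone, with all libraries, 8 of the 10 fold changes were above 0 in LowAhR+AD against LowAhR and 9 of 10 in LowAhR+AD+BJ against LowAhR. Of all 14854 rows 7725 and 7483 were above 0 there, and these comparisons share the LowAhR libraries. Against Cont, 4 of 10 were above 0 in LowAhR and 6 of 10 in LowAhR+AD, beside 7672 and 7723 of all rows.

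**Figure D1:**
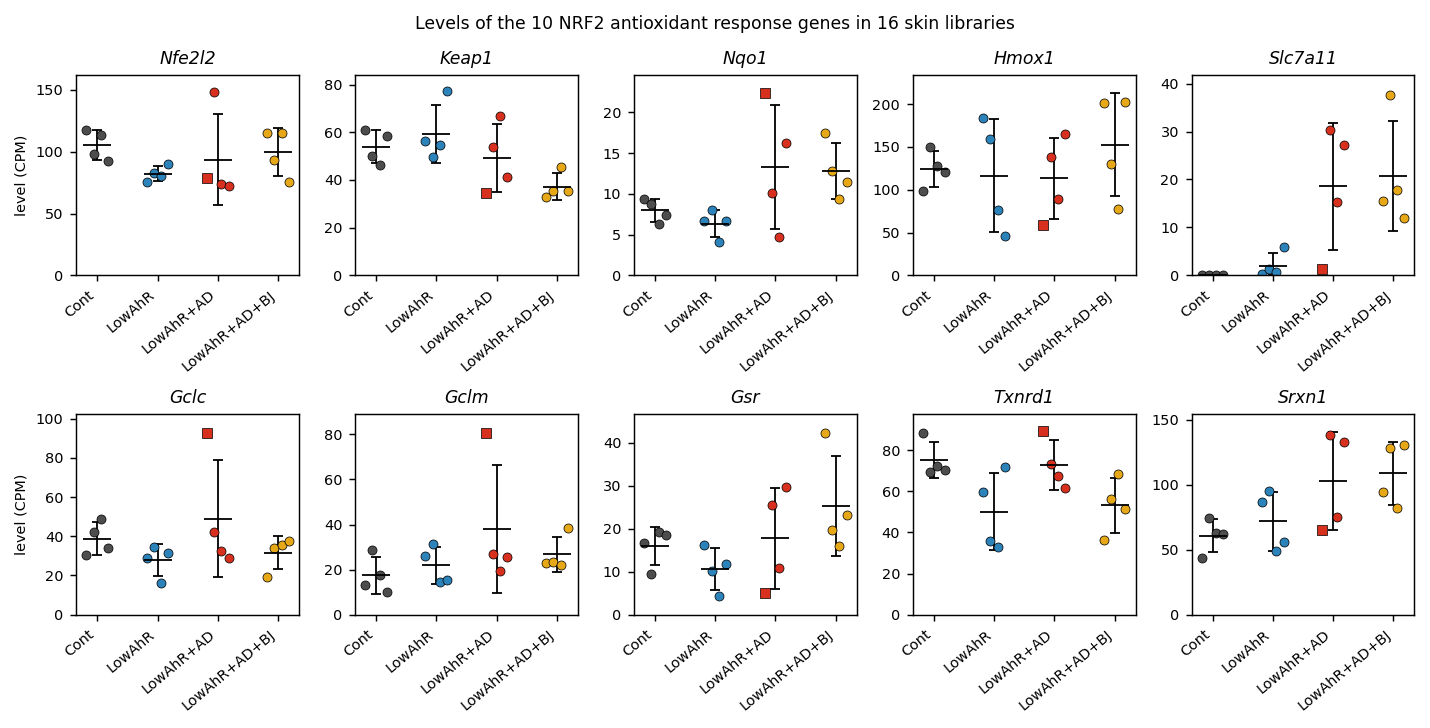
Levels in CPM of the 10 genes in the 16 libraries, by group, with a point per library, a bar at the group mean and whiskers of 1 SD (n = 4, cut at 0). The square marks LowAhR+AD replicate 1. Slc7a11 is at 0 in all Cont libraries and between 12.0 and 37.6 CPM in LowAhR+AD+BJ, and the highest Gclc and Gclm points are both the square.

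**Figure D2:**
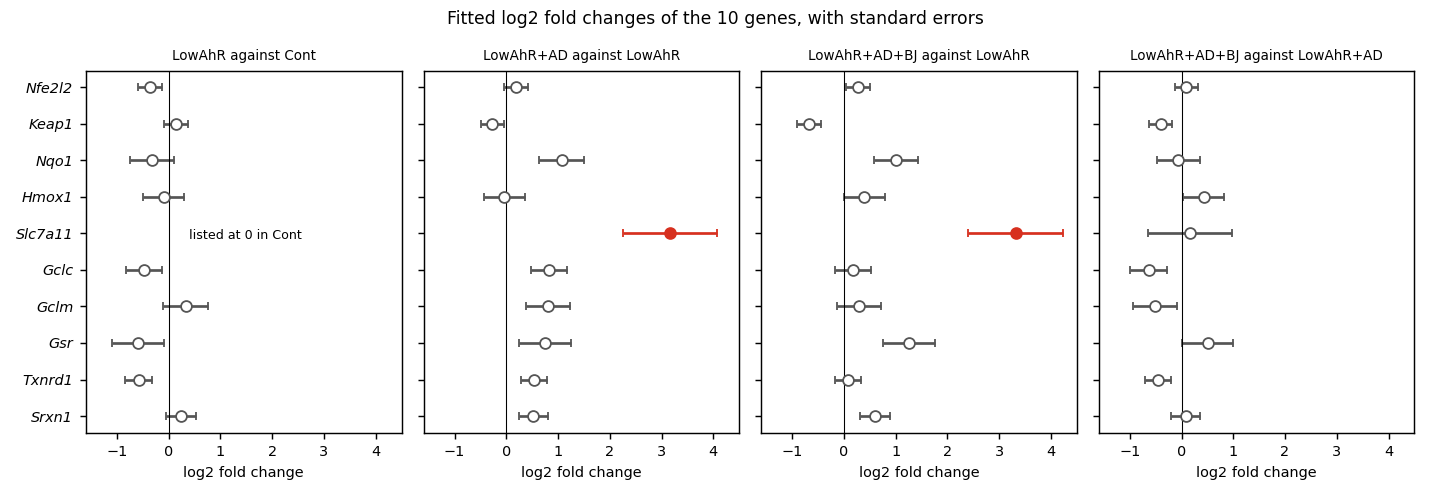
Fitted log2 fold changes with standard errors from edgeR in 4 comparisons, a row per gene, filled where the adjusted p was under 0.05. Only Slc7a11 is filled, at 3.16 in LowAhR+AD against LowAhR and at 3.32 in LowAhR+AD+BJ against LowAhR, and no fold is drawn for it against Cont, where every library is at 0.

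Slc7a11 (chr3:50364936-50499087, minus strand) was not detected in normal skin and had its highest means after DNCB. In Cont it had 0 counts in each of the 4 libraries, and 3 counts would have been 0.359 to 0.387 CPM there. In LowAhR its level was 0.270, 1.41, 0.650 and 5.84 CPM in replicates 1 to 4, from 2, 11, 5 and 49 counts. In LowAhR+AD it was 1.22, 30.3, 15.4 and 27.3 CPM, from 16, 370, 198 and 340 counts. In every DNCB-treated library but LowAhR+AD replicate 1 the level was above that of any LowAhR library. In LowAhR+AD+BJ it was 15.5, 37.6, 17.9 and 12.0 CPM, from 170, 370, 230 and 119 counts. The order of the group means was therefore Cont, LowAhR at 2.04 ± 2.58 CPM, LowAhR+AD at 18.6 ± 13.2 and LowAhR+AD+BJ at 20.8 ± 11.5 (SD, n = 4), and only the Cont and LowAhR groups did not overlap with the next in that order.

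In LowAhR+AD, Slc7a11 rose 8.95-fold over LowAhR (log2 fold change 3.16 ± 0.91 SE, edgeR adjusted p = 0.0340). The groups overlapped because LowAhR replicates 2 and 4 both exceeded LowAhR+AD replicate 1. Leaving out LowAhR+AD replicate 1 gave 3.56 ± 0.73 (edgeR adjusted p = 0.00699), and leaving out LowAhR replicate 4 gave 4.55. The call in all libraries was lost with limma voom (adjusted p = 0.222), when only the 8 libraries of these groups were fitted (edgeR adjusted p = 0.0959), and on leaving out LowAhR replicate 1, 2 or 3 or LowAhR+AD replicate 2 or 4 (edgeR adjusted p 0.0725 to 0.0916). In LowAhR+AD+BJ against LowAhR the rise was 10.01-fold (log2 fold change 3.32 ± 0.92, edgeR adjusted p = 0.0419), the groups did not overlap, as was the case upwards for 8.91% of all rows, and the two-sided exact permutation p was 0.0286, the smallest that 4 against 4 libraries can give. There the call was lost with limma voom (adjusted p = 0.174) and on leaving out any LowAhR+AD+BJ library but replicate 3 or any LowAhR library but replicate 4 (edgeR adjusted p 0.0697 to 0.138), and without LowAhR replicate 4 the value was 4.71 (adjusted p = 0.0129).

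Against Cont the mean level of Slc7a11 was at least 5.44-fold higher in LowAhR, at least 49.4-fold higher in LowAhR+AD and at least 55.3-fold higher in LowAhR+AD+BJ, taking 3 counts per library as the limit in Cont. The value of LowAhR rested on replicate 4, without which its mean was at least 2.07-fold higher, and LowAhR replicate 1, at 2 counts, lay below the level that 3 counts would have in any Cont library. Leaving out 1 library at a time gave at least 39.0-fold to 64.8-fold in LowAhR+AD, the latter without replicate 1. The rise in LowAhR+AD passed the test (edgeR adjusted p = 6.2e-04), and it did so under each of the 9 alternatives that kept all libraries and the gene and on leaving out any of the 8 libraries. Groups that did not overlap, with LowAhR+AD higher, were found for 12.9% of all rows. LowAhR against Cont missed the threshold with edgeR (adjusted p = 0.0846) although the groups did not overlap, as was the case upwards for 5.68% of all rows, and passed it with DESeq2 (adjusted p = 0.000482) and with the spread estimated without LowAhR+AD replicate 1 (edgeR adjusted p = 0.0219). Between LowAhR+AD+BJ and LowAhR+AD the log2 fold change was 0.16 ± 0.82 (edgeR adjusted p = 0.963), with a standard error larger than the value itself, and it was -0.24 ± 0.67 without LowAhR+AD replicate 1.

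Markers of the hair follicle also differed between the groups, and their part in the rise of Slc7a11 was not tested. The 12 hair follicle markers, keratins of the inner root sheath and hair shaft with trichohyalin, summed to 9.75 to 1040 CPM in Cont, 102 to 12800 in LowAhR, 7020 to 35100 in LowAhR+AD and 7690 to 23300 in LowAhR+AD+BJ. LowAhR replicate 4, which had the highest Slc7a11 of its group, also had the highest hair follicle sum of its group, and LowAhR+AD replicate 1 had the lowest of both in its group. All 4 LowAhR+AD libraries had the same order in both, with sums of 7019, 18084, 22357 and 35069 CPM beside 1.22, 15.4, 27.3 and 30.3 CPM of Slc7a11. The LowAhR and LowAhR+AD+BJ libraries did not keep this order. LowAhR replicate 2 had the lowest hair follicle sum of its group, 102 CPM, at 1.41 CPM of Slc7a11, and LowAhR replicate 1 had a sum of 4227 CPM at 0.270 CPM of Slc7a11. Among the LowAhR+AD+BJ libraries the lowest sum was that of replicate 1, while Slc7a11 was lowest in replicate 4, whose sum was 19671 CPM. Of these 12 markers all were called higher in LowAhR+AD against Cont and 0 in LowAhR+AD or LowAhR+AD+BJ against LowAhR. Slc7a11 is also known as a gene of pigment synthesis in melanocytes. The 5 melanocyte markers summed to 172 to 246 CPM in the Cont and LowAhR libraries and to 206 to 456 in the DNCB-treated ones, and 1 of the 4 tested was called higher in LowAhR+AD against LowAhR.

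Markers of other cell types also differed between these groups. All 4 markers of activated keratinocytes (Krt6a, Krt6b, Krt16 and Krt17) were called higher in LowAhR+AD against LowAhR, with sums of 525 to 1730 CPM in LowAhR and 11000 to 33000 in LowAhR+AD, and all 5 cell cycle markers were called higher. All 8 skeletal muscle markers were called lower, with sums of 7170 to 19100 CPM in LowAhR and 384 to 3230 in LowAhR+AD, as were 4 of 5 adipocyte markers, 2 of 6 sebaceous gland markers and 2 of 5 T cell markers. Of the neutrophil markers 7 of 8 had rows, with Ly6g not among them, 4 were tested and 1 was called higher, and their sums were 1.16 to 42.8 CPM over all libraries. In whole skin fewer cells of a type and less RNA per cell cannot be told apart, for Slc7a11 or for any other member.

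**Figure D3:**
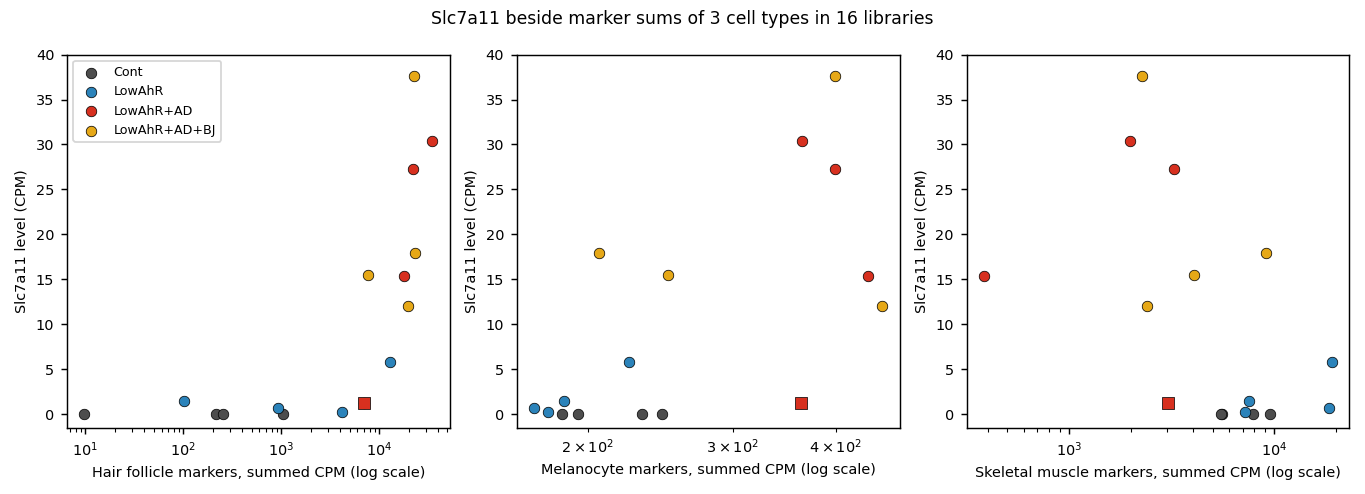
Level of Slc7a11 in CPM (vertical axis) against the summed CPM of hair follicle, melanocyte and skeletal muscle markers (horizontal axes, log scale), a point per library, coloured by group, with a square for LowAhR+AD replicate 1. Libraries with over 10 CPM of Slc7a11 all have hair follicle sums of 7690 CPM or more, and the skeletal muscle sums of the groups overlap in part.

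The glutamate cysteine ligase subunits, which act after cystine import in glutathione synthesis, did not pass the test in any comparison. Gclc (chr9:77754535-77794489, plus strand), the catalytic subunit, was at 30.5, 42.1, 48.7 and 33.97 CPM in Cont and at 29.1, 34.7, 16.1 and 31.2 CPM in LowAhR. In LowAhR+AD it was at 92.8, 41.9, 32.3 and 29.0 CPM, and in LowAhR+AD+BJ at 19.1, 33.8, 35.6 and 37.5 CPM. A single library, LowAhR+AD replicate 1, set the height of the LowAhR+AD group. Compared to LowAhR, the log2 fold change was 0.82 ± 0.35 (edgeR adjusted p = 0.134) with that library and 0.31 ± 0.29 (adjusted p = 0.557) without it, and compared to Cont it was 0.34 with it and -0.19 without it.

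Gclm (chr3:122245487-122267215, plus strand), the modifier subunit that raises the efficiency of the enzyme, had its highest level in the same library. Its level was 13.0, 28.8, 17.6 and 10.2 CPM in Cont, 26.0, 31.2, 14.6 and 15.5 in LowAhR, 80.5, 26.7, 19.6 and 25.5 in LowAhR+AD, and 22.8, 23.4, 22.1 and 38.6 in LowAhR+AD+BJ. All groups overlapped. The log2 fold change of LowAhR+AD against Cont was 1.13 ± 0.44 (edgeR adjusted p = 0.0719) and was 0.45 ± 0.36 without that library (adjusted p = 0.416), while it passed the threshold without Cont replicate 2 (adjusted p = 0.0374) or LowAhR+AD replicate 3 (adjusted p = 0.0394). The last stretch of the Gclm transcript closely matches 16 other annotated genes, 2 of which have rows in the tables, so that part of its count may be shared with them.

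Within a library, the ratio of Gclm to Gclc ran from 0.299 to 0.684 in Cont, from 0.496 to 0.903 in LowAhR, from 0.606 to 0.881 in LowAhR+AD and from 0.62 to 1.2 in LowAhR+AD+BJ. LowAhR+AD replicate 1, at 0.868, was inside the range of its group. Cont replicate 2 was the only Cont library above 0.424, and it overlapped each of the diet groups. The ratios are given as a description with no test.

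Nfe2l2 (chr2:75675513-75704663, minus strand) did not pass the test in any comparison. It was at 118, 98.4, 114 and 92.4 CPM in Cont and at 75.6, 82.5, 80.7 and 90.4 CPM in LowAhR. The LowAhR libraries were thus all below the Cont libraries, by a log2 fold change of -0.36 ± 0.23 (edgeR adjusted p = 0.533, exact permutation p = 0.0286), as were 5.63% of all rows. It was at 78.6, 149, 74.1 and 72.6 CPM in LowAhR+AD and at 115, 93.0, 115 and 75.8 CPM in LowAhR+AD+BJ. Replicate 2 of LowAhR+AD stood above the rest of its group, and the log2 fold change over LowAhR was 0.18 ± 0.23 with all libraries (edgeR adjusted p = 0.644), 0.26 without replicate 1 and -0.13 without replicate 2.

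Keap1 (chr9:21229730-21239332, minus strand), whose product holds NRF2 in check, had its lowest mean in LowAhR+AD+BJ, at 37.2 ± 5.6 CPM (SD, n = 4). Its level was 60.8, 50.2, 46.4 and 58.5 CPM in Cont, 56.2, 49.6, 54.5 and 77.2 in LowAhR, 34.6, 53.7, 66.8 and 41.3 in LowAhR+AD, and 32.7, 35.5, 45.4 and 35.2 in LowAhR+AD+BJ. All LowAhR+AD+BJ libraries lay below all LowAhR libraries, as for 8.19% of all rows, with a log2 fold change of -0.67 ± 0.23 (edgeR adjusted p = 0.0804, exact permutation p = 0.0286). This difference missed the threshold with edgeR and passed it with DESeq2 (adjusted p = 0.0382) and with a filter of at least 10 counts in every library (edgeR adjusted p = 0.0498), and with the spread estimated without LowAhR+AD replicate 1 (edgeR adjusted p = 0.0329). For LowAhR+AD against LowAhR it was -0.27 ± 0.22 (edgeR adjusted p = 0.458), or -0.14 ± 0.21 without that library (adjusted p = 0.737). Against LowAhR+AD the groups overlapped, with a log2 fold change of -0.40 ± 0.23 (edgeR adjusted p = 0.576), or -0.54 ± 0.21 without LowAhR+AD replicate 1 (adjusted p = 0.924). An antisense gene overlaps Keap1, and the sources used here do not give whether strand was used in counting.

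The ratio of Nfe2l2 to Keap1 within a library was 1.93, 1.96, 2.45 and 1.58 in Cont, 1.34, 1.66, 1.48 and 1.17 in LowAhR, 2.27, 2.77, 1.11 and 1.76 in LowAhR+AD, and 3.53, 2.62, 2.53 and 2.15 in LowAhR+AD+BJ. The ranges of LowAhR+AD+BJ and LowAhR did not overlap, with medians of 2.57 and 1.41. Keap1 alone did not overlap between these groups either, and how often ratios of other gene pairs separate them was not computed. LowAhR and Cont overlapped only between LowAhR replicate 2 and Cont replicate 4. LowAhR+AD ran from 1.11 to 2.77, and its overlap with LowAhR came from replicate 3 alone. The ratio was chosen for its role in the pathway, as a description with no test.

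**Figure D4:**
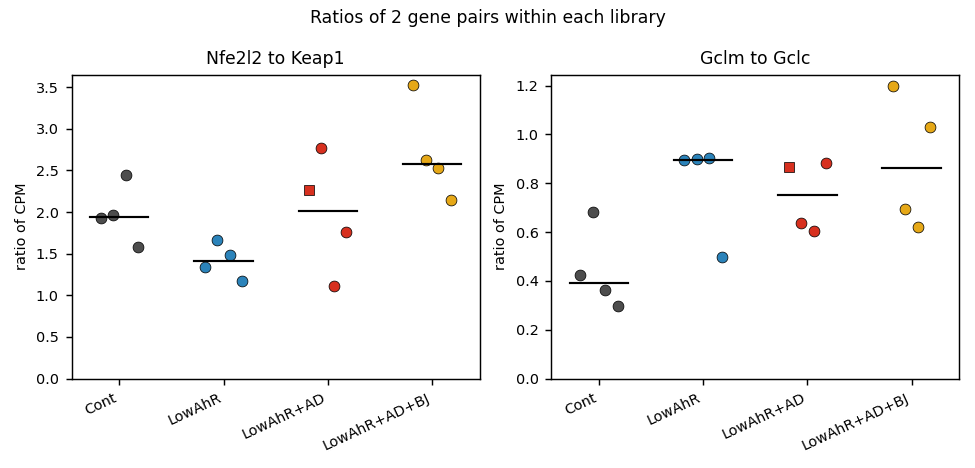
Ratio of the CPM of Nfe2l2 to Keap1 (left) and of Gclm to Gclc (right) within each library, by group, with a point per library, a line at the group median and a square for LowAhR+AD replicate 1. The Nfe2l2 to Keap1 ratios of LowAhR+AD+BJ, from 2.15 upwards, lie above those of LowAhR, which end at 1.66.

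Nqo1 (chr8:107388225-107403205, minus strand), an enzyme that reduces quinones and a usual readout of NRF2, was at low levels and did not pass the test in any comparison. Its level was 9.36, 8.78, 6.29 and 7.42 CPM in Cont and 6.62, 8.06, 4.03 and 6.68 CPM in LowAhR. In LowAhR+AD it was 22.3, 10.1, 4.66 and 16.2 CPM, and in LowAhR+AD+BJ 17.5, 12.8, 9.33 and 11.5 CPM. LowAhR+AD replicate 3 lay within the untreated range, and the other 3 of that group and all 4 of LowAhR+AD+BJ lay above every LowAhR library. The log2 fold change against LowAhR was 1.01 ± 0.43 in LowAhR+AD+BJ (edgeR adjusted p = 0.172, exact permutation p = 0.0286), with no overlap, as was the case upwards for 8.91% of all rows. In LowAhR+AD it was 1.07 ± 0.43 (edgeR adjusted p = 0.110), and it turned on single libraries, with 0.69 ± 0.42 without replicate 1 (adjusted p = 0.321) and 1.35 ± 0.39 without replicate 3 (adjusted p = 0.0315).

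Hmox1 (chr8:75093618-75100593, plus strand), haem oxygenase 1, which breaks down haem and is also abundant in macrophages, overlapped between all groups. It ran from 98.4 to 149.9 CPM in Cont, from 46.0 to 184 in LowAhR, from 59.3 to 166 in LowAhR+AD and from 77.8 to 202 in LowAhR+AD+BJ. Its log2 fold changes lay between -0.13 and 0.43 with edgeR adjusted p from 0.629 to 0.962. For LowAhR+AD it was -0.04 over LowAhR and -0.13 over Cont, and these values became 0.16 ± 0.40 (edgeR adjusted p = 0.847) and 0.06 ± 0.40 (adjusted p = 0.934) when replicate 1 was omitted. The macrophage markers, of which 0 of 8 were called in any comparison, summed to 546 to 1260 CPM in Cont, 1470 to 1660 in LowAhR, 236 to 1630 in LowAhR+AD and 891 to 2060 in LowAhR+AD+BJ. The library with the lowest macrophage sum, LowAhR+AD replicate 1, also had the lowest Hmox1 of its group, while in LowAhR the macrophage sums were close together and Hmox1 was not. The part of these cells in the level of Hmox1 was not tested.

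Gsr (chr8:33653238-33698162, plus strand) encodes glutathione reductase, which restores oxidized glutathione. Its level was 16.5, 9.43, 19.2 and 18.5 CPM in Cont, 16.1, 10.2, 4.29 and 11.7 in LowAhR, 4.96, 25.5, 10.7 and 29.8 in LowAhR+AD, and 42.1, 19.6, 16.01 and 23.1 in LowAhR+AD+BJ. Only the lowest LowAhR+AD+BJ library reached down to the highest LowAhR library, with a log2 fold change of 1.25 ± 0.50 (edgeR adjusted p = 0.148, exact permutation p = 0.0571). In LowAhR+AD against LowAhR it was 0.75 ± 0.50 (edgeR adjusted p = 0.352), and 1.05 ± 0.45 without LowAhR+AD replicate 1 (adjusted p = 0.139).

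Txnrd1 (chr10:82833951-82897724, plus strand), thioredoxin reductase 1, was at 69.6 to 88.3 CPM in Cont, 32.9 to 71.9 in LowAhR, 61.4 to 89.3 in LowAhR+AD and 36.5 to 68.6 in LowAhR+AD+BJ. All Cont libraries lay within the range of LowAhR+AD, and LowAhR and LowAhR+AD+BJ reached lower than either. The log2 fold changes were -0.58 ± 0.25 for LowAhR against Cont (edgeR adjusted p = 0.310), 0.54 ± 0.25 for LowAhR+AD against LowAhR (adjusted p = 0.173) and -0.45 ± 0.25 when LowAhR+AD+BJ was set against LowAhR+AD (adjusted p = 0.572). None passed the test, and without LowAhR+AD replicate 1 the latter pair were 0.43 ± 0.26 and -0.35 ± 0.26. Eid3, which has a row of its own, lies within Txnrd1 on the same strand, so reads may be split between them.

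Srxn1 (chr2:152105524-152111376, plus strand), sulfiredoxin, which reactivates oxidized peroxiredoxins, was at 43.7, 74.8, 63.3 and 62.1 CPM in Cont and at 86.8, 95.4, 49.0 and 56.3 CPM in LowAhR. It was at 65.2, 138, 75.4 and 133 CPM in LowAhR+AD and at 94.1, 128, 82.3 and 131 CPM in LowAhR+AD+BJ. LowAhR+AD replicate 1 lay within the Cont range, and the other 3 libraries of its group lay above it. The log2 fold change of LowAhR+AD over Cont was 0.76 ± 0.28 (edgeR adjusted p = 0.0656). It passed the threshold at 0.91 ± 0.28 without LowAhR+AD replicate 1 (adjusted p = 0.0240) and at 0.88 without LowAhR+AD replicate 3 (adjusted p = 0.0462). Against LowAhR it was 0.52 ± 0.28 in LowAhR+AD (edgeR adjusted p = 0.242), or 0.68 ± 0.28 without replicate 1 (adjusted p = 0.126), and 0.60 ± 0.28 in LowAhR+AD+BJ (adjusted p = 0.223).

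Addition of BJIKT to DNCB treatment gave no call among the 10 genes. The lowest adjusted p was that of Gclc, at 0.565 with a log2 fold change of -0.64 ± 0.35, and Gclm was at -0.51 ± 0.43. Both values rested on the high levels of LowAhR+AD replicate 1 and were -0.14 ± 0.29 and 0.15 ± 0.36 without it. The values of Hmox1 and Gsr were 0.43 ± 0.40 and 0.51 ± 0.49, those of Srxn1, Nfe2l2 and Nqo1 lay between -0.06 and 0.09, and all groups overlapped for every member. These small values turned on single libraries. Nqo1 ran from -0.34 without LowAhR+AD replicate 3 to 0.31 without replicate 1, and Nfe2l2 reached 0.41 without LowAhR+AD replicate 2. Hmox1 ran from 0.22 without LowAhR+AD replicate 1 to 0.67 without replicate 4, and Gsr from 0.14 without LowAhR+AD+BJ replicate 1 to 0.88 without LowAhR+AD replicate 4. Srxn1 ran from -0.10 without LowAhR+AD replicate 1 to 0.25 without replicate 2, and Slc7a11 from -0.31 without LowAhR+AD+BJ replicate 2 to 0.50 without LowAhR+AD replicate 2. No left-out library gave a call among the 10 genes (edgeR adjusted p of 0.404 or more).

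Levels of the 10 genes showed little common pattern across the libraries. Over the 45 pairs of members the median Pearson r of log2 CPM in the 16 libraries was 0.055, with 7 pairs above 0.5 and 3 below -0.5, and it was 0.20 without LowAhR+AD replicate 1, an omission chosen after seeing the data. The highest r was 0.709, between Slc7a11 and Srxn1, and the 3 lowest all involved Keap1, with Nqo1 (-0.764), Gclm (-0.612) and Srxn1 (-0.529). With the group means subtracted the r of Keap1 and Nqo1 was -0.660 and that of Slc7a11 and Srxn1 was 0.333. These correlations share libraries and groups and are given as a description.

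For each member the gene most like it was sought among 9606 genes outside the 10 with a mean log2 CPM of at least 3, by Pearson r over the 16 libraries. Car2, carbonic anhydrase 2, was the most like Slc7a11, with an r of 0.956 and a Spearman's rho of 0.927, and ran from 1.16 to 2.95 CPM in Cont, 5.95 to 16.1 in LowAhR, 8.24 to 70.0 in LowAhR+AD and 35.3 to 106 in LowAhR+AD+BJ. The others were Esyt2 for Nfe2l2 (r 0.773), Ybx3 for Keap1 (0.881), Adam10 for Nqo1 (0.893), Atp6ap2 for Hmox1 (0.875), Ptprf for Gclc (0.881), Tnfrsf1a for Gclm (0.882), Pak1ip1 for Gsr (0.867), Tenm2 for Txnrd1 (0.856) and Dut for Srxn1 (0.868). Only Nfe2l2 had the same gene by Spearman's rho, and without LowAhR+AD replicate 1 only Gclc kept its gene.

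Other genes of the NRF2 pathway were taken from a list of 62, of which 60 passed the low-count filter and Cyp2a5 and Abcc2 did not. The list also holds 12 partners and regulators of NRF2, and 4 antioxidant enzymes outside the usual NRF2 list, namely Cat, Sod1, Sod2 and Sod3. Neither LowAhR against Cont nor the addition of BJIKT to DNCB gave a call in the list with edgeR, and 16 and 4 of the 60 had an unadjusted p under 0.05 there, beside 13.7% and 9.46% of all rows. In the former 3 were called with DESeq2, beside 491 of all rows, and 3 with only the 8 libraries concerned. Without LowAhR replicate 2, 3 were called beside 159 of all rows. With the spread estimated without LowAhR+AD replicate 1, 4 were called beside 475 of all rows. In the latter 0 were called under every alternative run. In LowAhR+AD against LowAhR 4 were called higher and 7 lower, in LowAhR+AD against Cont 17 higher and 11 lower, and in LowAhR+AD+BJ against LowAhR 7 higher and 3 lower. With all libraries, the median log2 fold changes over the list in these 3 comparisons were -0.04, 0.30 and -0.0005, against medians of 0.04, 0.05 and 0.01 over all rows. Of all rows, 6.42% were called higher and 6.21% lower in the former, 12.3% and 9.47% against Cont, and 3.64% and 3.12% in the latter. Without LowAhR+AD replicate 1, 6 of the list were called higher and 8 lower in LowAhR+AD against LowAhR. There 2 of the list were called, both lower, when only the 8 libraries concerned were fitted, beside 765 of all rows. Without LowAhR replicate 2, 6 were called. With 1 library left out, 1128 to 2015 of all rows were called there. In LowAhR+AD+BJ against LowAhR, 3 to 16 were called when a library of these groups was left out. With the spread estimated without LowAhR+AD replicate 1, 19 were called beside 1716 of all rows. Calls over all rows also changed in these fits, and nothing particular to the list is read from these changes.

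The 4 genes of the list called higher in LowAhR+AD against LowAhR belonged to glutathione and thioredoxin metabolism. Prdx1, a peroxiredoxin that removes peroxides, rose from 233 to 289.7 CPM in LowAhR to 337 to 680.03 in LowAhR+AD (log2 fold change 0.92 ± 0.25, edgeR adjusted p = 0.0228) and 382 to 805 in LowAhR+AD+BJ (1.31 ± 0.25, adjusted p = 0.00627). Its groups overlapped in neither, which was a condition for naming it and adds no support. Of all 14854 rows, 1325 in the former comparison and 1324 in the latter did not overlap, with the DNCB-treated group higher. Gpx2, an epithelial glutathione peroxidase, rose from 0 to 12.0 CPM in LowAhR to 35.2 to 86.0 in LowAhR+AD+BJ (3.69 ± 1.03, adjusted p = 0.0387). Glrx, glutaredoxin, rose from 57.7 to 117 CPM in LowAhR to 179.9 to 506 in LowAhR+AD+BJ (2.31 ± 0.44, adjusted p = 0.00547), and in the same comparison Txn1, thioredoxin, rose by 1.04 ± 0.29 (adjusted p = 0.0360) and Esd, an esterase of the formaldehyde pathway, by 0.89 ± 0.24 on the log2 scale (adjusted p = 0.0356). The calls of Gpx2, Txn1 and Esd in LowAhR+AD+BJ were each lost on leaving out any of 6 or 7 of the 8 libraries (edgeR adjusted p up to 0.110), and that of Prdx1 in LowAhR+AD without LowAhR replicate 2 or 3 or LowAhR+AD replicate 4 (adjusted p up to 0.0777). In LowAhR+AD against LowAhR 3 of the 8 glutathione genes were called higher, namely Gpx2, Glrx and Slc3a2, the partner subunit of xCT. Their groups overlapped, and they are named after their values were seen. Slc3a2 was at 32.0 to 97.0 CPM in LowAhR and 79.0 to 139 in LowAhR+AD (0.91, adjusted p = 0.0439). The end of its transcript closely matches 383 other annotated genes, so that part of its count may be shared. The same limit holds for Gpx2, Prdx1 and Esd, whose ends match 1, 2 and 9 other genes, and for Sod1 and Me1 below, with 1 and 2. Of these, only the gene matching Gpx2 has a row in the count tables. Without LowAhR+AD replicate 1, Gpx2, Glrx and Slc3a2 were at 2.85 ± 0.84, 1.80 ± 0.33 and 1.02 ± 0.29 over LowAhR on the log2 scale, Prdx1 was at 1.061 ± 0.24, and all 4 stayed called (edgeR adjusted p up to 0.0359).

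Against Cont, LowAhR+AD skin was higher in Gpx2 (log2 fold change 5.67 ± 1.14, edgeR adjusted p = 0.00216), Prdx1 (1.60 ± 0.26), Slc3a2 (1.53 ± 0.29) and Esd (1.25 ± 0.25). Ggt1, gamma-glutamyltransferase 1, which cleaves extracellular glutathione, had no count in any Cont library and was at least 28.9-fold higher in LowAhR+AD (edgeR adjusted p = 8.2e-04), or at least 25.7-fold without LowAhR+AD replicate 1. Like Slc7a11 it reached the low-count filter through the groups where it was high, so that its passing the filter is not independent of this difference. Its level was 0 to 8.23 CPM in LowAhR, 7.38 to 14.4 in LowAhR+AD and 3.47 to 6.45 in LowAhR+AD+BJ. For Gpx2 the LowAhR+AD level rested on replicate 1 at 387 CPM, beside 53.8, 11.3 and 45.5 CPM in the other libraries, and without it the log2 fold change against Cont was 3.91 ± 0.89 (adjusted p = 0.00405). The values of Prdx1, Slc3a2 and Esd against Cont were then 1.73, 1.62 and 1.39, and all 3 stayed called.

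Aldehyde dehydrogenases and several other genes of the list were lower. Aldh1a1, which oxidizes retinal and other aldehydes, fell from 159 to 236 CPM in LowAhR to 17.3 to 30.4 in LowAhR+AD (log2 fold change -2.99 ± 0.38, edgeR adjusted p = 1.7e-04) and to 26.5 to 98.0 in LowAhR+AD+BJ (-1.91 ± 0.36, adjusted p = 0.00547). Aldh3a1, which is also a known target of the AhR, fell from 78.0 to 126 CPM to 14.3 to 43.1 in LowAhR+AD (-1.97 ± 0.42, adjusted p = 0.00566), and it was at 18.9 to 100.4 CPM in LowAhR+AD+BJ. Txnip, an inhibitor of thioredoxin, fell by 1.501 ± 0.43, Abcc4, an export pump, by 1.44 ± 0.35, and Sod1, cytosolic superoxide dismutase, by 1.17 ± 0.25 on the log2 scale in LowAhR+AD against LowAhR (adjusted p = 0.0301, 0.0119 and 0.00642). With replicate 1 of LowAhR+AD omitted, the log2 fold changes of Aldh1a1, Aldh3a1, Txnip, Abcc4 and Sod1 in this comparison were -2.86, -1.77, -1.18, -1.27 and -0.97, and all 5 stayed called (edgeR adjusted p up to 0.0345). With only the 8 libraries concerned the calls of Txnip, Abcc4 and Sod1 were lost (edgeR adjusted p 0.0541 to 0.0949). The call of Txnip was also lost without LowAhR replicate 1, 2 or 4 or LowAhR+AD replicate 2, and that of Abcc4 without LowAhR replicate 2 (adjusted p 0.0569 to 0.0760). In LowAhR+AD+BJ against LowAhR, Mafk, a small MAF partner of NRF2, and Sqstm1, whose product p62 binds KEAP1, fell by 1.16 ± 0.31 and 0.63 ± 0.18 (adjusted p = 0.0303 and 0.0432), and each of these calls was lost on leaving out any of 6 of the 8 libraries (adjusted p up to 0.146). Against Cont, Aldh1a1, Aldh3a1, Abcc4, Me1, a source of NADPH, and Txnip fell in LowAhR+AD by 3.24 to 1.26 on the log2 scale, and the call of Txnip was lost on leaving out any library of the comparison but LowAhR+AD replicate 3 (adjusted p 0.0519 to 0.101).

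**Figure D5:**
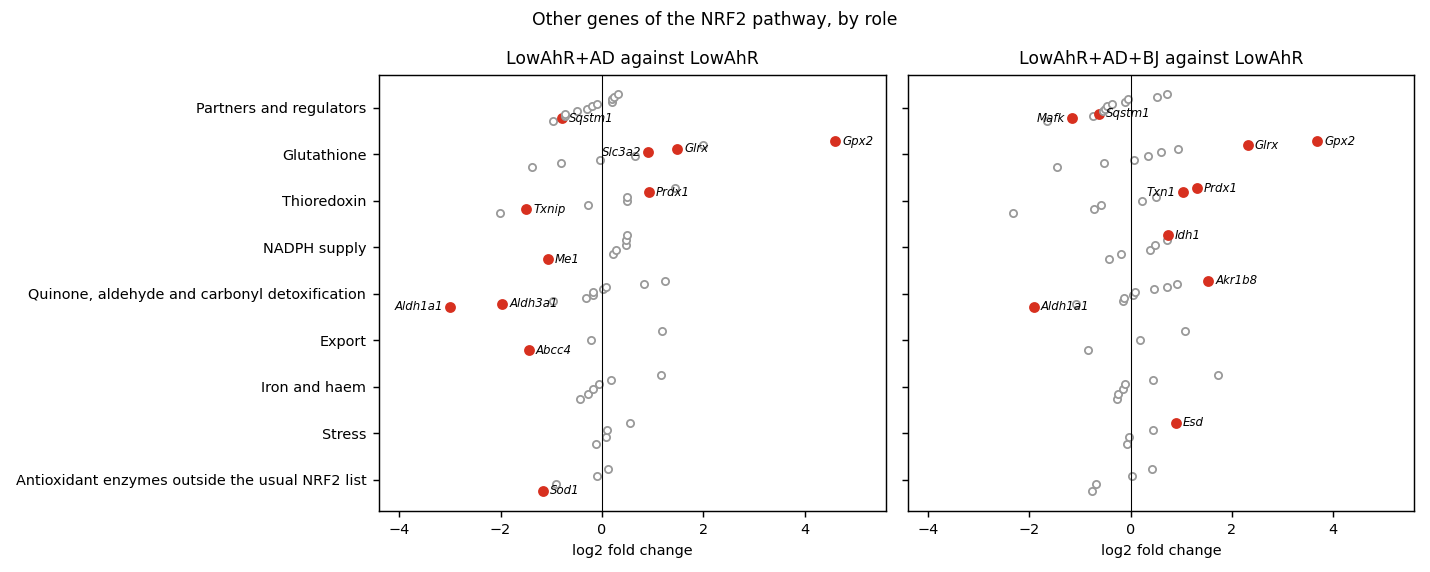
Log2 fold changes from edgeR of the 60 tested genes of the wider NRF2 list in LowAhR+AD (left) and LowAhR+AD+BJ (right) against LowAhR, by role, a point per gene, filled and named where the adjusted p was under 0.05. Glutathione genes are named on the right of 0 in both panels, and Aldh1a1 and Sqstm1 on the left in both.

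By role, the log2 fold changes of LowAhR+AD over LowAhR had a median of 0.78 for the 8 glutathione genes, 0.50 for the 7 thioredoxin genes and 0.38 for the 6 genes of NADPH supply, and of -0.25 for the 12 partners and regulators of NRF2. These medians are given with all libraries only, and how far they rest on LowAhR+AD replicate 1 was not computed. In LowAhR+AD+BJ against LowAhR, which shares the LowAhR libraries, the same medians were 0.47, 0.23, 0.43 and -0.48. Among the glutathione genes Gpx3 and Gpx4 went down. Mean levels in LowAhR, LowAhR+AD and LowAhR+AD+BJ were 1737, 672 and 631 CPM for Gpx3 and 165, 94.1 and 114 for Gpx4. Over LowAhR 0 glutathione genes were called lower, and against Cont LowAhR+AD had 5 called higher and 1 lower. Without LowAhR+AD replicate 1, Gpx3 was at -1.47 ± 0.39 in LowAhR+AD+BJ against LowAhR (edgeR adjusted p = 0.0221). The called genes thus lay in both directions within the list, and lists of this size were described and not tested. Because the list mixes targets with regulators, the inhibitor Txnip and enzymes outside the usual NRF2 list, these directions do not give the activity of the pathway. The marker sums given with Slc7a11 moved between the same groups of libraries, and their part in these differences was not tested.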

How the data were processed

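The authors deposited raw read counts per gene for 16 libraries made with the QuantSeq 3′ kit and read as single ends of 75 bases. The submitters' processing notes name Bowtie2, bedtools and the mm10 build, with versions not given in the sources used here. Whether strand was used in counting is also not given. Each table held 23282 rows, and 0 rows named no gene. Library totals of 7080508 to 13467477 reads set the precision of low counts, and counts of 0 were read against a floor of 3 counts per library, which covers counting error only.

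Samples were grouped by their labels, with 4 mice in each of the 4 groups. Counts were fitted with edgeR 4.0.16 (quasi-likelihood test, TMM factors) in R 4.3.3, with a mean per group over all 16 libraries. Rows were kept by filterByExpr (minimum count 10, minimum total 15), and Benjamini-Hochberg adjustment ran over the 14854 rows tested, with a threshold of 0.05. Standard errors were derived from the fold change and its F statistic. The log2 CPM values used a prior count of 2, and exact permutation tests on them were two-sided, with 0.0286 the smallest p that 4 against 4 can give. limma 3.58.1 (voom), DESeq2 1.42.0, other scalings and filters, separate models of 8 libraries, a replicate block and leaving out each library were alternatives. The steps were tested on simulated data.

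The 10 genes, the pathway list and the marker lists were chosen with earlier results of these data known. Of the pathway list, genes were named where they were called and their groups did not overlap, up to the 5 largest rises and 5 largest falls in a comparison. Gene positions and promoters came from RefSeq on GRCm38.p6, which has the coordinates of mm10. Shared transcript ends were sought with blastn, as alignments of the last bases of each gene's GENCODE transcripts to those of other genes over at least 75 bases, the read length, at high but not necessarily full identity.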

Additional observations from a re-analysis of the deposited data

Results flagged for a closer look

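Of 39 combinations of a gene and a group, 4 held a library far from the other 3 of its group, and chance alone places about 1 in 20 groups there. Nfe2l2 was at 149 CPM in LowAhR+AD replicate 2, against 72.6 to 78.6 CPM in the others. Gclc was at 19.1 CPM in LowAhR+AD+BJ replicate 1, against 33.8 to 37.5 CPM, and Gclm at 38.6 CPM in LowAhR+AD+BJ replicate 4, against 22.1 to 23.4 CPM. Txnrd1 was at 88.3 CPM in Cont replicate 1, against 69.6 to 72.3 CPM. None of these values came from LowAhR+AD replicate 1.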

How the results depend on the processing

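Among all rows, LowAhR against Cont gave 0 calls with edgeR and all libraries, 35 when at least 10 counts were required in every library, 491 with DESeq2 and 250 with only the 8 libraries concerned, and 0 to 159 when 1 library was left out, with 159 without LowAhR replicate 2. Calls in LowAhR+AD against LowAhR numbered 1876, or 765 with only the 8 libraries, and 1128 to 2015 with 1 library left out, the lower values (1159, 1128 and 1244) coming without LowAhR replicate 1, 2 or 3. LowAhR+AD+BJ against LowAhR+AD gave 0 calls, 17 with DESeq2, and 0 to 1 with 1 library left out. LowAhR+AD+BJ against LowAhR gave 1005, 1676 with DESeq2, and 414 to 1469 with 1 library left out, with 606, 519 and 556 without LowAhR replicate 1, 2 or 3 and 602, 414 and 453 without LowAhR+AD+BJ replicate 1, 2 or 4. Calls in LowAhR+AD against Cont (3233) stayed within 1.5 times under every alternative run.

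Among the 10 genes, DESeq2 called 1 in LowAhR against Cont and 2 in LowAhR+AD+BJ against LowAhR. In LowAhR+AD against LowAhR 0 were called with limma voom, with only the 8 libraries or with at least 10 counts in every library, a filter that removes Slc7a11, and 0 to 2 with 1 library left out. That filter also gave 0 in LowAhR+AD against Cont, where 1 to 3 were called with 1 library left out. In LowAhR+AD+BJ against LowAhR 0 were called with limma voom and 0 to 1 with 1 library left out. For the diet alone and for BJIKT added to DNCB no left-out library of the groups compared gave a call. With the spread estimated without LowAhR+AD replicate 1, chosen after seeing the data, LowAhR against Cont gave 475 calls and 1 among the 10 genes, and LowAhR+AD+BJ against LowAhR gave 1716 and 2. With all libraries kept, 488 of 494 fold changes of the 10 genes kept their side of the threshold, and 384 of 400 did with 1 library left out. Of the named pathway genes limma voom lost Gpx2 in LowAhR+AD against Cont (adjusted p = 0.127) and in LowAhR+AD+BJ against LowAhR (adjusted p = 0.200), and DESeq2 called 19 of the list in the latter. Where no reason stands here, the cause was not tested.

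The labels do not say whether libraries with the same replicate number were paired. Deviations from the group means correlated at -0.0547 to 0.167 (median -0.00736) for libraries with the same number and at -0.146 to 0.14 (median -0.00935) for others. Low correlations over all genes cannot exclude a weak shared batch. With the replicate number as a block, 1689 rows were called for LowAhR+AD and 947 for LowAhR+AD+BJ over LowAhR, 2990 for LowAhR+AD over Cont, and 0 for the diet alone or for BJIKT added to DNCB. No call of the 10 genes differed, and Sqstm1 was lost in LowAhR+AD+BJ against LowAhR (edgeR adjusted p = 0.0673). Depth limits Slc7a11 in Cont and LowAhR and Nqo1 throughout. P-values measure the spread between these 16 mice.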
